A study of Mus musculus with 201 samples.

Results

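Neurons are commonly sorted into excitatory and inhibitory classes by a handful of genes that make or load their transmitter, and 6 of these genes were followed here through single dentate granule cells of the mouse hippocampus. The members were listed by name: *Gad1*, *Gad2* and *Slc32a1* for GABA, and *Slc17a6*, *Slc17a7* and *Slc17a8* for glutamate. All 6 had a row in each of the 3 expression tables, which held 42790, 42802 and 42774 gene symbols. The series held 201 single cells and nuclei in 5 groups. Whole cells came from Prox1-GFP mice, a strain with a green fluorescent reporter driven by the *Prox1* promoter, were dissociated with protease and were sorted as GFP+. Their mice had received saline (47 cells) or PTZ (35 cells), pentylenetetrazol, a GABA(A) receptor antagonist that provokes seizures. Nuclei came from C57BL/6 mice by Dounce homogenization. A mouse given time in an unfamiliar enclosure (NE) gave 48 PROX1+FOS+ and 48 PROX1+FOS- nuclei, and a mouse kept in its home cage (HC) gave 23 NEUN+PROX1+ nuclei. The wild-type mice were young adult females, and the whole cells of each treatment were sorted from pooled hippocampi. The labels tied no cell to an animal, so each group was treated as 1 sample. Intervals below therefore cover counting error only, cells are not replicates, and no p-value was computed.

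GABA is made from glutamate by the 2 glutamate decarboxylases, GAD67 from *Gad1* and GAD65 from *Gad2*, and is loaded into synaptic vesicles by VGAT, the product of *Slc32a1*. Glutamate is loaded by the vesicular glutamate transporters VGLUT1, VGLUT2 and VGLUT3, the products of *Slc17a7*, *Slc17a6* and *Slc17a8*. Granule cells are glutamatergic, with VGLUT1 as their main transporter, and are also known to hold GAD67 and GABA in their mossy fibre terminals. *Prox1*, the gene behind the sorts, is also active in some GABAergic interneurons.

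On GRCm38, *Gad1* lies on the forward strand of chromosome 2 at 70553072 to 70602014, *Gad2* on the same strand at 22622205 to 22693874, and *Slc32a1* also on that strand at 158610767 to 158615748. *Slc17a6* lies on chromosome 7 at 51622006 to 51671119 and *Slc17a7* on chromosome 7 at 45163949 to 45176142, both forward, and *Slc17a8* on the reverse strand of chromosome 10 at 89574020 to 89621253. Because members of a family could trade reads, their coding sequences were compared in the GENCODE vM21 transcripts. The longest run that *Gad1* and *Gad2* had in common was 17 bases. It is shown in capitals with its coding neighbours in lower case, inside a coding exon of each gene (chromosome 2, 70593454 to 70593470 for *Gad1* and 22673966 to 22673982 for *Gad2*).
Gad1: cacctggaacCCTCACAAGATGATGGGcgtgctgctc
Gad2: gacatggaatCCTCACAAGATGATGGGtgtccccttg
The longest run in common between *Slc17a6* and *Slc17a7* was 21 bases, again in a coding exon of each (chromosome 7, 51625462 to 51625482 and 45168896 to 45168916).
Slc17a6: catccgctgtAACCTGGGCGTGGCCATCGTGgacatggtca
Slc17a7: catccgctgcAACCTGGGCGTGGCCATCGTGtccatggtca
For *Slc17a6* and *Slc17a8* it was 25 bases, at 51625418 to 51625442 on chromosome 7 and at 89606668 to 89606692 on the reverse strand of chromosome 10.
Slc17a6: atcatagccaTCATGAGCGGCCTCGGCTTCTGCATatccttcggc
Slc17a8: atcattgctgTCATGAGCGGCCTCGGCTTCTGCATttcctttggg
No window of 50 bases was common to a pair of members.

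Sharing with genes outside the family was small but unequal. Of the windows of 50 bases in their transcripts, *Slc17a6* and *Slc17a7* had 0% in common with any other gene. *Gad1* had 1.49% in common with 4 genes, among them its processed pseudogene *Gad1-ps*, which held at most 7.82 expected counts in a group. *Gad2* had 1.17% of its windows in common with 321 other genes, and *Slc17a8* had 1.29% in common with 136, so part of each transcript is repeated sequence. *Slc32a1* had 23.7% in common with *Gm14205*, an antisense gene that overlaps 697 of its 2797 exon bases and had 0 counts in every group.

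A gene was called detected in a cell above a TPM of 1, where TPM is a share of all transcripts and is scaled for transcript length and so allows levels of different genes to be set side by side. After cells with a total count of 50000 or less or with too few detected genes were left out, 38 saline and 30 PTZ cells, 40 FOS+ and 41 FOS- nuclei and all 23 HC nuclei were used. Median total counts were 975934 and 1090750 in saline and PTZ cells, 269061 and 214421 in FOS+ and FOS- nuclei and 165926 in HC nuclei, with 6185 to 6281 genes detected on average in the first 4 groups and 3237 in HC nuclei. *Prox1*, which marks granule cells, was detected in 38 of 38 saline and 30 of 30 PTZ cells, in 33 of 40 FOS+ and 34 of 41 FOS- nuclei, and in 14 of 23 HC nuclei. The 3 tables were normalised separately, and HC nuclei were amplified on the C1 platform, so values are set side by side across tables and compared only within one.

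In whole cells *Slc17a7* and *Gad1* stood out, with the other 4 genes near or at 0. In saline cells the mean log2(TPM + 1) ran from *Slc17a7* (7.33 ± 2.28, SD over cells, n = 38) and *Gad1* (6.13 ± 2.89) down to *Slc17a6* (0.28 ± 1.28), *Slc17a8* (0.07 ± 0.20), *Gad2* (0.07 ± 0.20) and *Slc32a1* at 0. The gap of 5.84 between *Gad1* and *Slc17a6* was the only step between neighbours in that order that exceeded the spread. The spread was the larger SD over cells of the 2 genes. PTZ cells had the same order and the same break, with *Slc17a7* at 6.76 ± 3.19 (n = 30), *Gad1* at 5.24 ± 3.55 and *Slc17a6* at 0.56 ± 1.62. In FOS- nuclei the break lay instead between *Slc17a7* (6.57 ± 2.20, n = 41) and *Gad1* (2.13 ± 3.19). In FOS+ nuclei, where *Slc17a7* was at 6.60 ± 2.11 and *Gad1* at 3.55 ± 4.06 (n = 40), no neighbouring pair differed beyond its spread. HC nuclei had *Gad1* at 1.95 ± 3.40 and *Slc17a7* at 1.77 ± 2.44 (n = 23), also with no step beyond the spread.

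**Figure D1:**
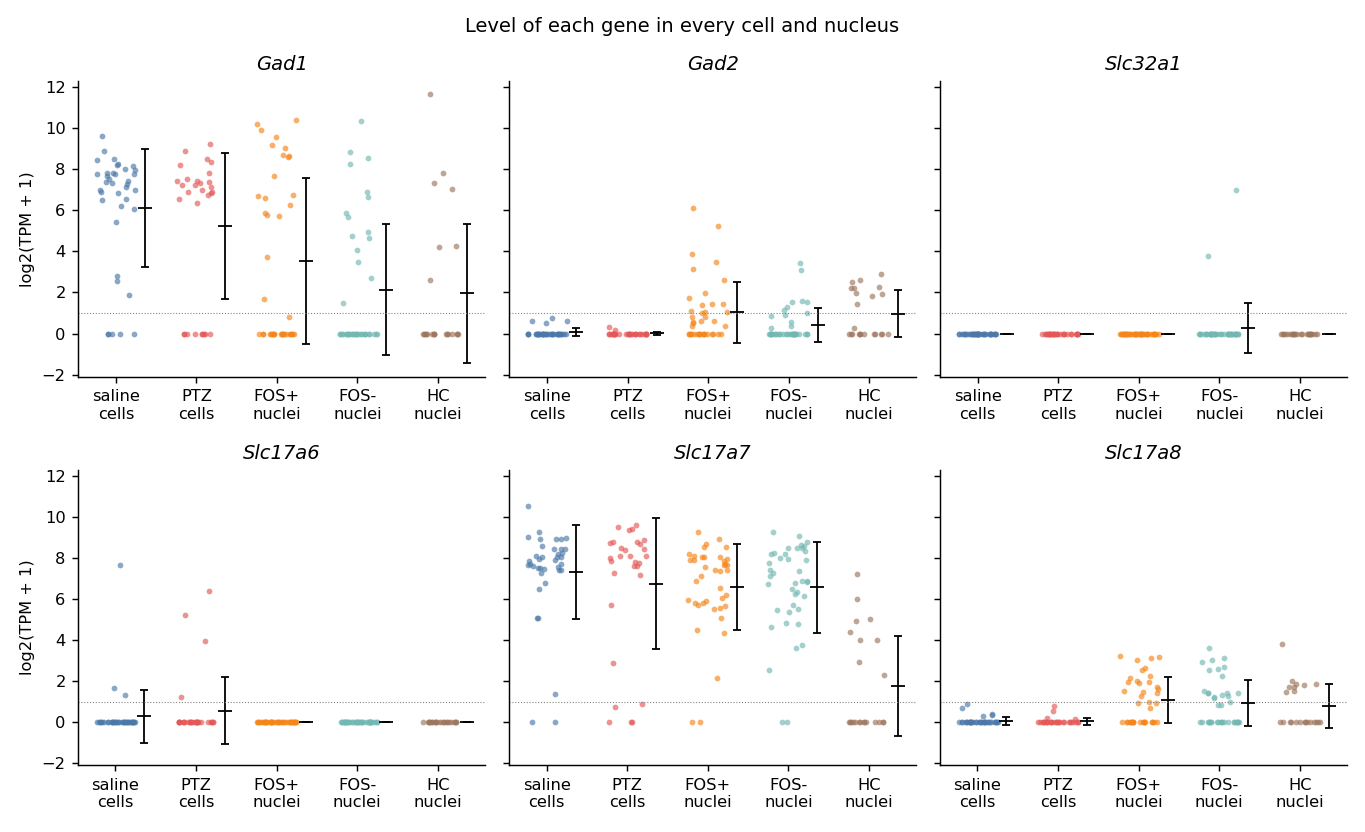
Level of each gene as log2(TPM + 1) (vertical axis) in every cell or nucleus (points) of the 5 groups (horizontal axis). Black marks are the mean and SD over cells, and the dotted line is the detection limit of 1 TPM. *Gad1* and *Slc17a7* fill the upper range in whole cells, *Slc32a1* leaves 0 in 2 FOS- nuclei, and *Gad2* and *Slc17a8* leave it mainly in nuclei.

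*Gad1*, the gene for GAD67, was found in most whole cells. It was detected in 33 of 38 saline cells (86.8%, exact 95% binomial interval 71.9 to 95.6%) at a lowest, median and highest level of 2.72, 172 and 795 TPM among those cells, and in 21 of 30 PTZ cells (70.0%, 50.6 to 85.3%) at 80.9, 159 and 597 TPM. Most detecting cells were thus well above the limit, but 3 saline cells held 2.72, 4.83 and 5.96 TPM, and the next lowest held 42.8 TPM. In nuclei its levels spanned a wide range. In FOS+ nuclei it was detected in 19 of 40 (47.5%, 31.5 to 63.9%) at 2.26, 202 and 1360 TPM, and in FOS- nuclei in 15 of 41 (36.6%, 22.1 to 53.1%) at 1.81, 50.7 and 1311 TPM. In the 7 HC nuclei that detected it (30.4%, 13.2 to 52.9%) it stood at 5.12, 17.8, 18.2, 130, 159, 223 and 3231 TPM. The last value, in HC nucleus 4, was 1325 of the 1490 *Gad1* counts of the group, or 88.9%, so a pooled HC level describes that nucleus.

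*Gad2*, the gene for GAD65, had a different distribution. It was detected in 0 of 38 saline and 0 of 30 PTZ cells, which allows shares of up to 7.89% and 10.0% (3 cells of the total; the exact binomial upper limits were 9.25% and 11.6%), and the whole cells held 4 and 2 counts of it in all. In nuclei it was detected in 14 of 40 FOS+ (35%, 20.6 to 51.7%), 7 of 41 FOS- (17.1%, 7.15 to 32.1%) and 10 of 23 HC nuclei (43.5%, 23.2 to 65.5%), at median levels of 2.61, 1.93 and 3.69 TPM among them. These levels were a small fraction of those of *Gad1*. They also rested on few reads: 5 FOS+, 2 FOS- and 0 HC nuclei reached 5 counts. In 21 of the 23 FOS+ nuclei with any *Gad2* count that count was fractional, as were 12 of 13 in FOS- and 11 of 11 in HC nuclei. In FOS+ nuclei fractional counts were not particular to low genes, since 22 of 38 with *Slc17a7* counts and 11 of 20 with *Gad1* counts had them too. In HC nuclei, however, 0 of 9 with *Slc17a7* counts and 0 of 7 with *Gad1* counts had them. In saline cells 5 of 36 and 3 of 33 had them. FOS+ nucleus 39 stood apart with 68.3 TPM, 77 of the group's 145 counts, beside 587 TPM of *Gad1* and 611 TPM of *Slc17a7*, and FOS+ nucleus 11 held 36.8 TPM of *Gad2* with 0 TPM of *Gad1*.

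*Slc32a1*, which loads GABA into vesicles, was the rarest of the 6 in these cells. It had 0 counts in saline cells, PTZ cells, FOS+ nuclei and HC nuclei, which allows shares of up to 7.89%, 10.0%, 7.5% and 13%. It was detected in 2 of 41 FOS- nuclei (4.88%, 0.596 to 16.5%). FOS- nucleus 7 held 128 TPM (46 counts) and FOS- nucleus 48 held 12.6 TPM (20 counts).

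These 2 nuclei differed in the rest of their profile, and both are described after their values were seen. FOS- nucleus 7 was the only one of the 172 cells and nuclei used in which all 3 GABA genes were detected, with *Gad1* at 101 TPM and *Gad2* at 7.49 TPM, and it had 0 TPM of *Slc17a7*, *Slc17a6* and *Slc17a8*. It also held *Vip* at 5585 TPM, *Adarb2* at 1186 TPM, *Erbb4* at 416 TPM and *Dlx1* at 220 TPM, genes known from GABAergic interneurons. *Prox1*, the gene of the sort, was at 336 TPM in it. Of the other granule cell markers *Calb1* was at 4915 TPM and *Dock10* at 8.75 TPM, while *C1ql2* and *C1ql3* were at 0. In all, 7 of the 20 interneuron markers and 4 of the 13 granule cell markers listed for the check were detected in this nucleus. FOS- nucleus 48 held *Slc17a7* at 296 TPM, *Prox1* at 164 TPM, *C1ql2* at 339 TPM and 10.3 TPM of *Gad1*, with *Vip*, *Dlx1* and *Erbb4* at 0. It held 10 of the 13 granule cell markers and 5 of the 20 interneuron markers, among them *Cck* at 732 TPM, *Adarb2* at 114 TPM and *Dlx6* at 27.7 TPM. Without both, the differences between FOS+ and FOS- nuclei given below became log2 ratios of 0.85 for *Gad1*, 2.15 for *Gad2*, -0.09 for *Slc17a7* and 0.61 for *Slc17a8*, and *Gad1* with *Slc17a7* was found in 30.8% of FOS- nuclei.

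*Slc17a7*, the gene for VGLUT1, was the most widely detected member outside HC nuclei. It was detected in 36 of 38 saline cells (94.7%, 82.3 to 99.4%) at a lowest, median and highest level of 1.57, 243 and 1468 TPM among them, and in 25 of 30 PTZ cells (83.3%, 65.3 to 94.4%) at 6.32, 276 and 772 TPM. In nuclei the shares were 38 of 40 for FOS+ (95%, 83.1 to 99.4%), with a median of 171 TPM, and 39 of 41 for FOS- (95.1%, 83.5 to 99.4%), with 139 TPM. Few cells of these 4 groups lacked it. HC nuclei were the exception, with 9 of 23 (39.1%, 19.7 to 61.5%) and levels between 3.9 and 149 TPM. The HC median total count was the lowest of the 5 groups, and neither the platform nor the mouse can be told apart from the cage condition. With every NE nucleus thinned to 50000 counts, under the lowest HC total of 107647, *Slc17a7* was found in 92.4% of FOS+ and 91.8% of FOS- nuclei. The part of depth in the HC share was not tested.

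*Slc17a6*, the gene for VGLUT2, was detected in few cells. It was found in 3 of 38 saline cells (7.89%, 1.66 to 21.4%), at 1.53, 2.23 and 203 TPM, and in 4 of 30 PTZ cells (13.3%, 3.76 to 30.7%), at 1.38, 14.5, 36.8 and 83 TPM. It had 0 counts in FOS+, FOS- and HC nuclei, which allows shares of up to 7.5%, 7.32% and 13%. The 3 cells with the most *Slc17a6* had little *Slc17a7*. Saline cell 20, with 203 TPM of *Slc17a6*, held 1.57 TPM of *Slc17a7*, PTZ cell 13, with 83 TPM, held 51.2 TPM, and PTZ cell 27, with 36.8 TPM, held 0.66 TPM. *Prox1* was at 1415, 1297 and 1479 TPM in these cells. It was also high in most whole cells without detected *Slc17a7*, at 1503 and 2109 TPM in saline cells 5 and 9. PTZ cells 25, 31 and 35 held 1227, 2008 and 743 TPM, but PTZ cell 22 held 95.7 TPM. In saline cell 9 and PTZ cell 25, *Calb1* was at 0.96 and 0 TPM and *Dock10* at 0. They held 4 and 5 of the 13 granule cell markers. All these cells were picked for description after their values were seen.

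*Slc17a8*, the gene for VGLUT3, was at the limit of detection. No whole cell passed 1 TPM (0 of 38 and 0 of 30), and nuclei passed it in 19 of 40 FOS+ (47.5%, 31.5 to 63.9%), 17 of 41 FOS- (41.5%, 26.3 to 57.9%) and 9 of 23 HC nuclei (39.1%, 19.7 to 61.5%). The medians among those nuclei were 2.88, 1.87 and 2.55 TPM and the highest values 8.23, 11.2 and 13.2 TPM. All 22 FOS+ nuclei with any *Slc17a8* count and 19 of 20 FOS- nuclei had a fractional count, as for *Gad2*, against 6 of 9 HC nuclei. Whole cells held 5 (saline) and 4 (PTZ) counts of it in all.

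**Figure D2:**
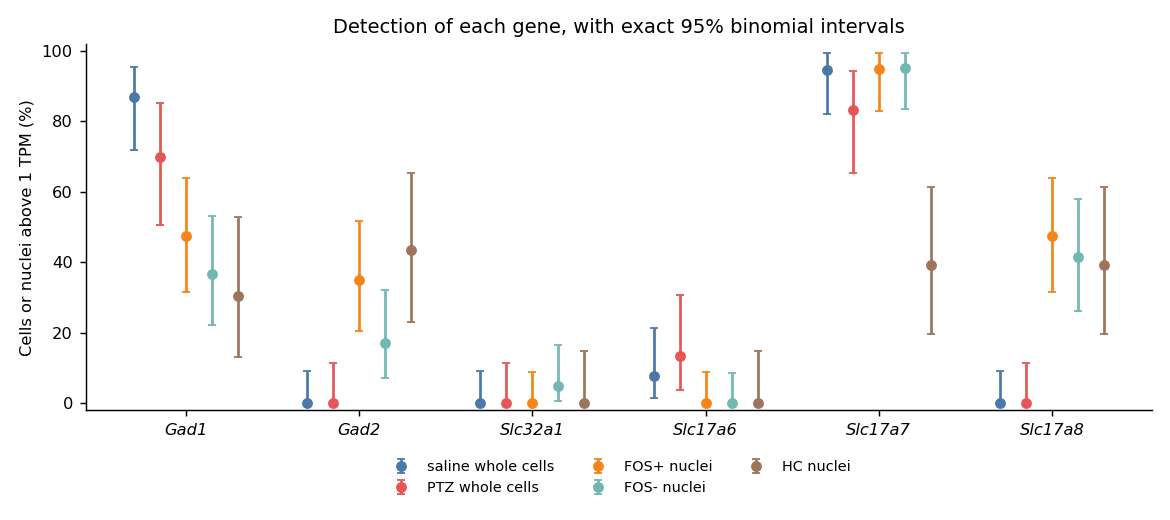
Share of cells or nuclei above 1 TPM (vertical axis, percent) for each gene (horizontal axis) and group (colours). Bars are exact 95% binomial intervals for counting error. *Slc17a7* lies between 83.3% and 95.1% in the first 4 groups and at 39.1% in HC nuclei, and *Gad1* runs from 86.8% in saline cells to 30.4% in HC nuclei.

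Co-detection asked whether *Gad1* marked cells apart from those with *Slc17a7*. In whole cells it mostly did not: 32 of 38 saline cells (84.2%, 68.7 to 94%) and 20 of 30 PTZ cells (66.7%, 47.2 to 82.7%) held both transcripts. In nuclei both were found in 19 of 40 FOS+ (47.5%, 31.5 to 63.9%), 13 of 41 FOS- (31.7%, 18.1 to 48.1%) and 4 of 23 HC nuclei (17.4%, 4.95 to 38.8%). *Gad1* without *Slc17a7* was rare, with 1 saline cell, 1 PTZ cell, 0 FOS+, 2 FOS- and 3 HC nuclei. *Slc17a7* without *Gad1* was the common other state in NE nuclei, with 19 FOS+ and 26 FOS- nuclei, against 4 saline and 5 PTZ cells and 5 HC nuclei. Neither gene was detected in 1, 4, 2, 0 and 11 cells of the saline, PTZ, FOS+, FOS- and HC groups.

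Among cells with *Gad1*, *Slc17a7* was detected in 97.0% (saline), 95.2% (PTZ), 100% (FOS+), 86.7% (FOS-) and 57.1% (HC). Among cells without *Gad1* the shares were 80.0%, 55.6%, 90.5%, 100% and 31.3%. Presence of *Gad1* therefore went with more frequent *Slc17a7* in 4 groups and with less frequent *Slc17a7* in FOS- nuclei. The exact intervals of the paired shares overlapped in all 5 groups. Depth moved along with it: the median total count was higher in cells with *Gad1* in all 5 groups, for example 1525200 against 823699 in PTZ cells and 313436 against 211256 in FOS- nuclei. The part of depth in these shares was not tested.

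Within cells holding both, the balance of the 2 transcripts varied widely. The median ratio of *Gad1* to *Slc17a7* TPM was 0.74 in saline cells, 0.62 in PTZ cells, 1.5 in FOS+ nuclei and 0.33 in FOS- nuclei, and *Gad1* was the higher of the pair in 10 of 32, 5 of 20, 11 of 19 and 4 of 13 cells. In HC nuclei it was the higher in 2 of 4. In FOS+ nuclei with both, the medians were 202 TPM for *Gad1* and 91.9 TPM for *Slc17a7*, whereas in FOS- nuclei with both they were 30 and 170 TPM. The ranges of the ratio overlapped, 0.034 to 63.4 in FOS+ and 0.0034 to 116.6 in FOS- nuclei. FOS- nucleus 27, 1 of the 2 with *Gad1* alone, held 458 TPM of *Gad1* and 380 TPM of *Sst*, a neuropeptide gene of interneurons, with 34.2 TPM of *Prox1* and 524 TPM of *C1ql3*, and the other was FOS- nucleus 7.

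**Figure D3:**
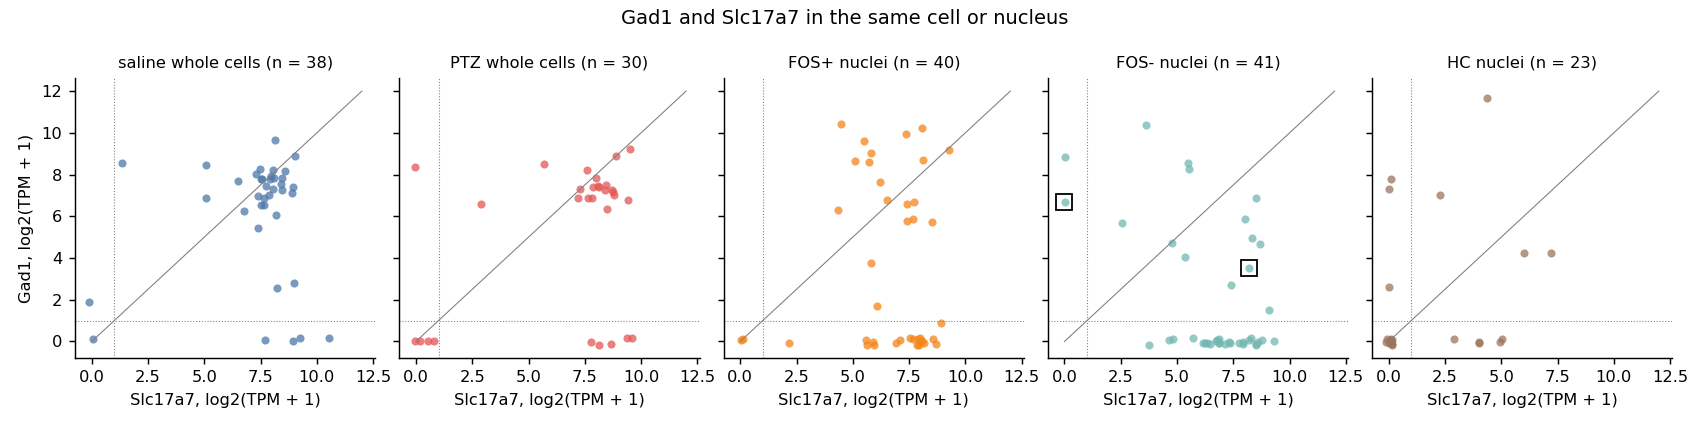
*Gad1* (vertical axis) against *Slc17a7* (horizontal axis), both as log2(TPM + 1), in each cell or nucleus of the 5 groups. Dotted lines mark 1 TPM, the grey diagonal marks equal levels, values near 0 are jittered, and squares mark the 2 FOS- nuclei with *Slc32a1*. Most whole cells form a cloud below the diagonal with both genes, while 11 of the 19 FOS+ nuclei with both lie above it.

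Counting all 6 genes, at least 1 GABA gene and at least 1 vesicular glutamate transporter were detected together in 32 of 38 saline cells, 20 of 30 PTZ cells, 27 of 40 FOS+, 15 of 41 FOS- and 9 of 23 HC nuclei. No member was detected in 0, 3, 2, 0 and 4 cells of these groups. More than 1 GABA gene was found in 0 whole cells and in some nuclei: 6 FOS+, 6 FOS- and 3 HC nuclei.

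The comparison of FOS+ with FOS- nuclei asked how the 6 genes stood in neurons with and without FOS protein after NE. By pooled counts *Gad1* was higher in FOS+ nuclei and *Slc17a7* was nearly level. The *Gad1* counts summed to 4007 in FOS+ and 2009 in FOS- nuclei, or 277 and 144 CPM (counts scaled to the pooled totals of each group). The log2 ratio was 0.95 (95% counting interval 0.87 to 1.02), a 1.93-fold difference, against a median of -0.20 over the 16411 genes with a count in at least 5 nuclei. Its share of nuclei was 10.9 percentage points higher in FOS+ nuclei, with a counting interval that spanned 0 (-12.0 to 32.8). Of all genes tested 13.4% rose by as much or more. The values of FOS+ and FOS- nuclei overlapped throughout, from 0 to 1360 TPM and from 0 to 1311 TPM.

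*Gad1* was read within each of the 4 amplification conditions that the NE nuclei were spread over, set by the concentration of the template-switching oligo (TSO) and the dilution of the ERCC spike-in RNA. At 1 µM TSO and 1:200 ERCC the mean log2(TPM + 1) was 4.21 ± 4.58 in FOS+ and 1.24 ± 2.62 in FOS- nuclei (n = 10 each). At 1 µM and 1:2000 it was 5.29 ± 4.42 (n = 8) and 4.07 ± 4.51 (n = 10). At 10 µM and 1:200 it was 3.2 ± 3.80 (n = 11) and 2.02 ± 2.80 (n = 10), and at 10 µM and 1:2000 it was 2.03 ± 3.41 and 1.27 ± 1.94 (n = 11 each). The mean was thus higher in FOS+ nuclei in 4 of 4 conditions, each time by less than the larger of the 2 SDs over nuclei. At 1 µM and 1:200 the difference of 2.98 exceeded the smaller SD, that of FOS- nuclei. The share was higher in 3 of 4, with 50 against 20%, 75 against 50% and 45.5 against 40%, and lower in the last, with 27.3 against 36.4%. In the same order of conditions the pooled log2 ratio was 4.22, 0.42, 3.18 and 4.65. The condition with the smallest ratio held the deepest nuclei, with median totals of 687744 in FOS+ and 586358 in FOS- nuclei. In the others the FOS+ nuclei were deeper too, with 254506 against 182669, 152332 against 79166 and 338757 against 303201. The part of depth in these means was not tested.

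The size of the *Gad1* ratio varied with the nuclei and weights used. Leaving out 1 nucleus at a time moved the pooled log2 ratio between 0.64 (without FOS+ nucleus 34) and 1.48 (without FOS- nucleus 27). It was 1.96 when every nucleus weighed the same, and 0.85 without the 2 FOS- nuclei with *Slc32a1*. Thinning every nucleus to 50000 counts gave *Gad1* in 43.4% of FOS+ and 29.4% of FOS- nuclei, against 50% and 36.6% with any count unthinned, so the difference at equal depth was 14.1 points.

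**Figure D4:**
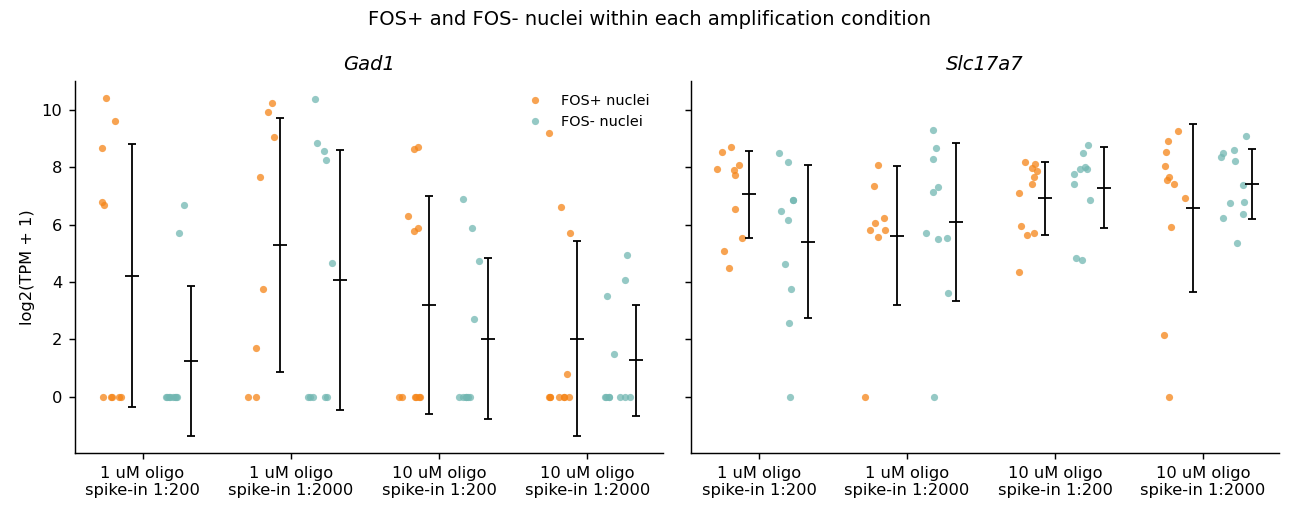
Level of *Gad1* (left) and *Slc17a7* (right) as log2(TPM + 1) (vertical axis) in each FOS+ and FOS- nucleus (points), split by amplification condition (horizontal axis, TSO concentration and ERCC spike-in dilution). Black marks are the mean and SD over nuclei. For *Gad1* the FOS+ mean is the higher in 4 of 4 conditions, and for *Slc17a7* in 1 of 4.

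*Slc17a7* was detected in 95% of FOS+ and 95.1% of FOS- nuclei, with 4571 and 4796 counts, or 316 and 344 CPM. The log2 ratio of -0.12 (-0.18 to -0.06) lay above the median of all genes, and it was -0.05 with TMM scaling and 0.00 with DESeq2 size factors, so its sign rested on the scaling. Within conditions its mean was higher in FOS+ nuclei in 1 of 4 and lower in 3 of 4. Of the 4 members tested (with a count in at least 5 nuclei), *Gad2* was the only one past 2-fold in pooled CPM, at 10.0 against 2.51 CPM (145 and 35 counts, log2 ratio 2.00, 1.46 to 2.58). Over all genes tested 46% were at least 2-fold apart, 17.8% higher and 28.2% lower in FOS+ nuclei, so 1 of the 4 members tested is no higher a share than that background. Without FOS+ nucleus 39 the *Gad2* log2 ratio was 0.94. Its share was 17.9 points higher in FOS+ nuclei, also with a counting interval that spanned 0 (-2.83 to 37.3).

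No member reached a difference of 20 percentage points between FOS+ and FOS- nuclei, which 7.99% of all genes tested did (4.3% higher and 3.69% lower in FOS+ nuclei). With any TPM above 0 counted as detected, the *Gad2* share was 25.8 points higher in FOS+ nuclei (57.5 against 29.3%), and with 1 nucleus left out at TPM above 1 it reached 20 points. *Slc17a8* had 81 against 47 counts (log2 ratio 0.73, 0.20 to 1.29), and 0.10 when every nucleus weighed the same. *Slc32a1*, with 0 against 66 counts, was at least 22.8-fold lower in FOS+ nuclei, taking 3 counts over the group as the floor. That bound was a log2 ratio of -4.51 and became -2.81 without FOS- nucleus 7, and without both nuclei that held the gene no count was left in either group. *Slc17a6* had 0 counts in both.

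The comparison of PTZ with saline cells asked how the genes stood after a seizure-inducing drug, with 1 pool of mice per treatment, so that treatment and pool cannot be told apart. Fewer PTZ cells held *Gad1* and *Slc17a7*, and the pooled levels were close. *Gad1* was detected in 70.0 against 86.8% of cells, a difference of -16.8 percentage points with a counting interval that spanned 0 (-38.1 to 4.51). Of the 14492 genes tested 7.13% fell by as much or more. The *Gad1* counts were 12467 and 11583, or 298 and 279 CPM, a log2 ratio of 0.09 (0.06 to 0.13). It was -0.03 with DESeq2 size factors and 0.19 with TMM, so its sign rested on the scaling. Thinned to 50000 counts, *Gad1* was found in 70.0% of PTZ and 81.4% of saline cells, against 70.0% and 86.8% with any count unthinned.

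*Slc17a7* stood at 83.3 against 94.7% of cells, a difference of -11.4 percentage points with a counting interval that spanned 0 (-30.0 to 5.25). Its pooled levels were 465 and 420 CPM (log2 ratio 0.15, 0.12 to 0.18). With all deposited cells, including those below the quality limits, the difference in share was 2.01 points, so the direction of that share depended on which cells were kept. No member reached 20 percentage points, which 7.42% of genes did (3.09% higher and 4.33% lower in PTZ cells). *Slc17a6* was the only member past 2-fold, at 11.4 against 4.89 CPM (478 and 203 counts, log2 ratio 1.22, 0.98 to 1.47), where 27.2% of genes were at least 2-fold apart and 13.2% were that much higher in PTZ cells. That ratio rested on single cells: saline cell 20 held 94.6% of the saline counts and PTZ cell 13 held 56.7% of the PTZ counts. It was 5.41 without saline cell 20 and 0.06 without PTZ cell 13, and -0.07 when every cell weighed the same. *Gad2* (2 and 4 counts) and *Slc17a8* (4 and 5 counts) were too sparse to compare.

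**Figure D5:**
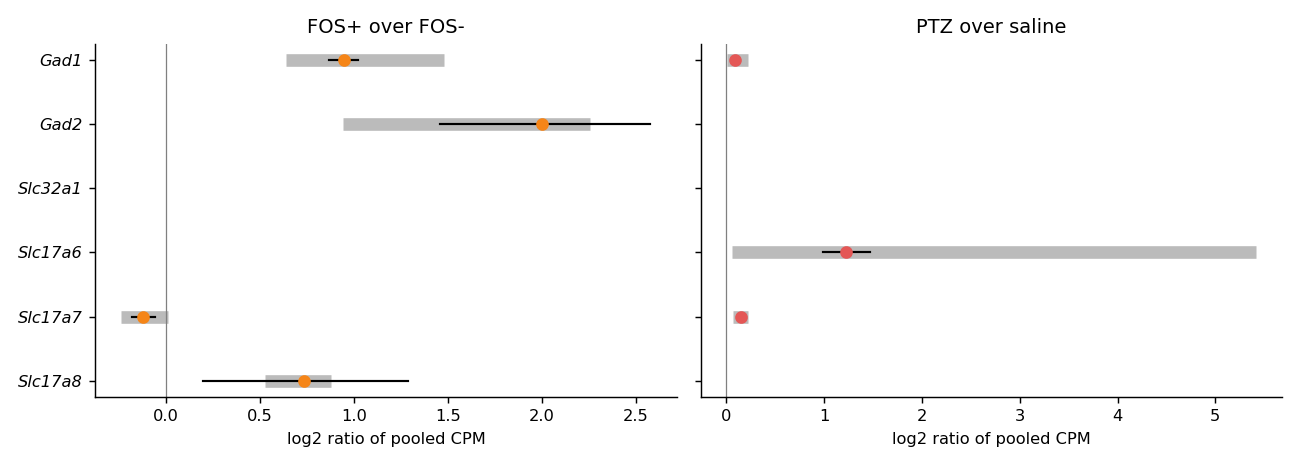
The log2 ratio of pooled CPM (horizontal axis) for each gene (vertical axis) with FOS+ over FOS- nuclei on the left and PTZ over saline cells on the right. Black lines are 95% counting intervals, grey bars the range when 1 cell at a time is left out, and genes with under 20 counts in all or 0 counts in a group are not drawn. The *Slc17a6* bar on the right runs from 0.06 to 5.41.

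The genes that remove or recycle these transmitters were described from lists fixed by function. Of 6 genes for GABA uptake and breakdown, 3 were tested between FOS+ and FOS- nuclei, and 0 passed 2-fold or 20 percentage points. Of all genes tested 46% passed the first limit and 7.99% the second, and 3 genes are too few to set apart from those shares. *Aldh5a1*, whose enzyme completes GABA breakdown in mitochondria, was detected in 11 of 40 FOS+ and 17 of 41 FOS- nuclei. In whole cells 4 of the 6 were tested. By share, 1 was at least 20 points higher and 1 at least 20 points lower in PTZ cells, where 3.09% and 4.33% of all genes were. The higher one was *Aldh5a1*, detected in 15 of 30 PTZ and 6 of 38 saline cells (50 against 15.8%). *Slc6a12* and *Slc6a13*, 2 further GABA transporters, were detected in no cell of either table.

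Of 11 genes for glutamate synthesis and uptake, all were tested in both tables. Between FOS+ and FOS- nuclei 2 were at least 2-fold higher and 0 lower, where 17.8% and 28.2% of all genes were, with a median log2 ratio of 0.17 against -0.20 for all genes. The share of *Slc1a2*, the glial glutamate transporter GLT-1, was over 20 points lower in FOS+ nuclei (11 of 40 against 22 of 41), lower in 3 of 4 conditions, while its counts summed to 2141 and 1652 (named after its values were seen). *Slc1a1*, the neuronal glutamate transporter EAAC1, was detected in 35 of 40 FOS+ and 35 of 41 FOS- nuclei. Between PTZ and saline cells 4 of the 11 were at least 2-fold higher and 0 lower, where 13.2% and 14% of all genes were, with a median log2 ratio of 0.20 against -0.04 for all genes. *Got2*, a mitochondrial aspartate aminotransferase, was detected in 26 of 30 PTZ and 34 of 38 saline cells.

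Genes of other transmitters were detected in part. Of 14 genes for monoamine, acetylcholine and glycine identity, 5 were detected in no NE nucleus and 7 in no whole cell, among them *Slc5a7*, the choline transporter, and *Tph2*, the neuronal tryptophan hydroxylase, in both. *Ddc*, which makes dopamine and serotonin from their precursors, was detected in 14 of 40 FOS+ and 11 of 41 FOS- nuclei. Its counts went the other way, with 79 against 479 in all. *Hdc*, which makes histamine, was detected in 20 of 40 and 15 of 41, at 52 and 40 counts in all. In whole cells *Slc18a2*, the vesicular monoamine transporter, led the list with 5 of 30 PTZ and 7 of 38 saline cells, and *Ddc* was found in 0 of 30 and 2 of 38.

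Markers of other cells were read beside these results. Of 20 interneuron markers, *Dlx2*, *Pvalb*, *Ndnf* and *Htr3a* were among those detected in no NE nucleus, and 12 of the 19 with a row in the whole-cell table, *Dlx1*, *Lhx6*, *Erbb4*, *Sst*, *Pvalb* and *Vip* among them, were detected in no whole cell used. The summed level of the list was 0 to 4863 TPM (median 515) in FOS+ and 5.08 to 7726 TPM (median 597) in FOS- nuclei, 0 to 2751 TPM (median 646) in PTZ and 0.47 to 3252 TPM (median 391) in saline cells, and 0.12 to 2516 TPM (median 19.5) in HC nuclei. The widely detected members of the list were *Dlx6* (which overlaps the antisense gene *Dlx6os1*, so its reads are uncertain, 35 of 40 FOS+ and 38 of 41 FOS- nuclei), *Adarb2* (32 of 40 and 30 of 41, and 20 of 30 PTZ and 30 of 38 saline cells) and *Cck* (25 of 40 and 25 of 41, and 19 of 30 PTZ and 27 of 38 saline cells). Of the 11 list genes tested in nuclei, 1 was at least 2-fold higher and 4 were at least 2-fold lower in FOS+ nuclei, where 17.8% and 28.2% of all genes were. The higher one was *Npy*, with 761 against 2 counts, and the lower ones were *Vip*, *Dlx1*, *Dlx6os1* and *Lamp5*, all 5 named after their values were seen. FOS- nucleus 7 held 1084 of the 1087 *Vip*, 96 of the 97 *Dlx1* and 88 of the 97 *Dlx6os1* counts of the FOS- group, so those 3 calls rested on it, and 0 of the 925 *Lamp5* counts. The part of interneuron RNA in the *Gad1* values was not tested.

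The other lists moved in part with the groups. Of 13 granule cell markers, 0 had shares at least 20 points higher and 2 at least 20 points lower in FOS+ nuclei, where 4.3% and 3.69% of all genes had. The 2 were *C1ql3* (28 of 40 FOS+ and 37 of 41 FOS- nuclei) and *Bcl11b* (13 of 40 and 28 of 41). Both were lower in 4 of 4 conditions, which the rule for naming a list gene in nuclei required. The median difference in share was -2.56 points for the list and -0.79 for all genes. *Prox1* (33 of 40 and 34 of 41) was nearly level, and *Rfx3* (39 of 40 and 37 of 41) was higher in FOS+ nuclei. In whole cells 0 of the 13 were at least 20 points higher and 3 at least 20 points lower after PTZ, where 3.09% and 4.33% of all genes were. *Glis3* (10 of 30 PTZ and 22 of 38 saline cells), *Trpc6* (17 of 30 and 31 of 38) and *Lct* (14 of 30 and 26 of 38) had the lower shares, as *Gad1* and *Slc17a7* had. Of 12 mossy and pyramidal cell markers, *Calb2* (7 of 30 and 1 of 38) and *Fibcd1* (12 of 30 and 5 of 38) had higher and *Meis2* (3 of 30 and 14 of 38) lower shares in PTZ cells, and in nuclei the most widely detected, *Wfs1* (10 of 40 FOS+ and 13 of 41 FOS-) and *Tbr1* (19 of 40 and 16 of 41), stayed within 20 points. By pooled CPM, 7 mossy and pyramidal genes were tested in whole cells. Of these, 4 were at least 2-fold higher and 1 lower in PTZ cells, where 13.2% and 14% of all genes were. The median log2 ratio of the 7 was 1.10 against -0.04 for all genes. The part of these lists in the shares of *Gad1* and *Slc17a7* was not tested.

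Of 19 glial and vascular markers, the myelin gene *Mag* was detected in 23 of 40 FOS+ and 14 of 41 FOS- nuclei. It was higher in 4 of 4 conditions, which the naming rule required. The microglial gene *Cx3cr1* was detected in 29 of 40 and 33 of 41. By pooled CPM, the 10 glial and vascular genes tested had a median log2 ratio of 1.17 against -0.20 for all genes. Of these 10, 5 were at least 2-fold higher in FOS+ nuclei and 0 lower, where 17.8% and 28.2% of all genes were. They were *Gfap* (830 against 6 counts, detected in 3 of 40 and 1 of 41 nuclei), *Csf1r* (445 against 29, in 4 and 1), *P2ry12* (495 against 40, in 4 and 5), *Mobp* (278 against 39, in 15 and 16) and *Pecam1* (181 against 67, in 17 and 19), all named after their values were seen. The summed level of the list was 0 to 4346 TPM (median 78.3) in FOS+ and 2.35 to 716.6 TPM (median 42.9) in FOS- nuclei. By pooled CPM the median of the tested genes of this list thus lay in the same direction as *Gad1*. *Mbp* went the other way, with 802 against 880 counts (log2 ratio -0.18). By share *P2ry12*, *Mobp* and *Pecam1* went the other way. The part of this list in the *Gad1* values was not tested. The astrocyte and oligodendrocyte genes *Aldh1l1* and *Olig2*, *C1qa* of microglia and *Cldn5* of endothelium were at 0 in all NE nuclei. In whole cells *Mbp* was detected in 16 of 30 PTZ and 25 of 38 saline cells, and *Pecam1* in 11 of 30 and 18 of 38. The immediate early genes checked the sort: *Arc* was detected in 31 of 40 FOS+ and 1 of 41 FOS- nuclei, and *Fos* in 12 of 40 and 3 of 41. In whole cells *Fos* was detected in 26 of 30 PTZ and 30 of 38 saline cells and *Egr1* in 18 of 30 and 30 of 38.

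Across the 81 NE nuclei, the genes whose level followed that of *Gad1* most closely, among 13751 genes detected in at least 10% of nuclei, were *Mir22hg* (Spearman's rho 0.46), *Tmem200a* (0.42) and *3110018I06Rik* (0.40). *Gad2* had a rho of 0.17 with *Gad1*, *Slc17a7* -0.17, *Slc17a8* -0.10 and the total count 0.22. For *Slc17a7* the closest included *Acss2* (0.51) and *Scaf4* (0.49), and the total count had 0.11. These are descriptions over nuclei of 1 mouse that also share the 4 amplification conditions and their depth. No other member was among the 3 genes most like *Gad1* or *Slc17a7*.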

How the data were processed

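Single whole cells and NE nuclei were amplified by Smart-seq2 and HC nuclei on the C1 platform. The authors trimmed reads and quantified genes on mm10 (GRCm38) with RSEM and Bowtie 1.0.0, per the labels and the methods of the study. The deposited tables hold expected counts, not normalised, and TPM, scaled by the authors for transcript length and library size. The strand setting was not given in the sources used here. In 3 tables of each unit, cells were kept with a total count over 50000 and with genes above 1 TPM exceeding the table mean minus 2 SD. The study's further filter on spike-ins was not used here, and all 23 HC nuclei were kept, 1 of them below the gene limit.

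Expected counts were rounded, summed over a group and divided by the summed totals (pooled CPM), with exact Poisson and conditional binomial intervals. Shares above 1 TPM have Clopper-Pearson intervals at 95%. A share of 0 is given with the limit of 3 cells divided by the number of cells. Levels are log2(TPM + 1). PCR reads carry no molecular identifiers, so intervals cover counting error only. Total counts ran from 63775 to 5129240 per cell, so 3 counts are 0.0000585 to 0.0047% of a library. A gene was tested with a count in at least 5 cells of a table, and was called at a 2-fold ratio of pooled CPM or at 20 percentage points of share. The planned design gave no p over cells, because the labels name no animals and each group is 1 mouse or 1 pool of mice. The pooled ratio was checked on simulated counts in which only genes with many counts were changed. That check does not cover members with few counts, such as *Gad2*, *Slc17a8* and *Slc32a1*. No doublet caller was run on these plate-sorted cells.

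Named list genes differed by 20 points of share (in nuclei, in the same direction in all 4 conditions), and otherwise the 2 with the highest share of a list were named. A few genes that this rule names are not reported here. Likeness was Spearman's rho of log2(TPM + 1) over NE nuclei. The 6 members and all lists were chosen with earlier results of these data known. Alternatives were other detection limits, all deposited cells, thinning to 50000 counts, single conditions, leaving out 1 cell, mean CPM or TPM, and scaling by edgeR 4.0.16 TMM or DESeq2 1.42.0 size factors. Gene positions and transcripts were those of GENCODE vM21 (GRCm38). Python 3.11.15, scipy 1.17.1 and R 4.3.3 were used.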

Additional observations from a re-analysis of the deposited data

Results flagged for a closer look

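Cells below the quality limits, which entered only the alternative with all deposited cells, held some reads of the members. The 5 PTZ cells below the limits held 4 counts of *Slc17a7*, 1 in each of 4 cells, above the 2 counts in the 9 saline cells below the limits. The 7 FOS- nuclei below the limits held 73 counts of *Gad1*, all in 1 nucleus, and 23 counts of *Slc17a7* in 2 nuclei, against 1 and 0 counts in the 8 FOS+ nuclei below the limits. Each of these libraries had a total of at most 46086 counts.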

How the results depend on the processing

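Of 236 recomputed values 186 stayed within their own counting interval or within 1.5 times the count of genes. That count does not measure how firm the results are. Some values could not move, such as the differences in share of *Slc17a6* in nuclei and *Slc32a1* in whole cells, which were 0 in every setting. The intervals of the other differences in share were wide. The pooled log2 ratios moved most, since their counting intervals are narrow. For FOS+ over FOS- nuclei, *Gad1* (0.95) was 1.96 with nuclei weighing the same, 1.39 by mean TPM, 1.07 with DESeq2 size factors, 0.85 without the 2 FOS- nuclei with *Slc32a1* (a setting chosen after seeing the data), 4.22, 0.42, 3.18 and 4.65 within the 4 conditions, and 0.64 to 1.48 with 1 nucleus left out. *Gad2* (2.00) ran from 0.94 (without FOS+ nucleus 39) to 2.25 with 1 nucleus left out, and was 2.48 by mean TPM. The bound for *Slc32a1* (-4.51) was -4.44 with TMM, -4.39 with DESeq2, -4.50 with all deposited nuclei, -0.17 without both nuclei that held it (which compares only the floors) and -4.62 to -2.81 with 1 nucleus left out. *Slc17a7* (-0.12) was -0.0495 with TMM, 0.0034 with DESeq2, 0.80, -1.02, -0.0471 and -0.0483 within the conditions, and -0.24 to 0.0098 with 1 nucleus left out. *Slc17a8* (0.73) was 0.10 with nuclei weighing the same and 0.15 by mean TPM. For PTZ over saline cells, *Gad1* (0.09) was -0.0252 with cells weighing the same, -0.25 by mean TPM, 0.19 with TMM, -0.0275 with DESeq2 and 0.0080 to 0.22 with 1 cell left out. *Slc17a6* (1.22) reversed to -0.0725 with cells weighing the same and to -0.27 by mean TPM, and ran from 0.0579 to 5.41 with 1 cell left out. *Slc17a7* (0.15) was 0.0236 by mean TPM, 0.24 with TMM, 0.0252 with DESeq2 and 0.0717 to 0.23 with 1 cell left out. Scaling moved the median of all genes in PTZ over saline cells from -0.04 to 0.05 with TMM and -0.16 with DESeq2, and in FOS+ over FOS- nuclei from -0.20 to -0.13 and -0.08. Co-detection of *Gad1* and *Slc17a7* was 68.1% in saline cells with all deposited cells, 75% and 27.3% in FOS+ nuclei at 1 µM and at 10 µM TSO with 1:2000 ERCC, and in FOS- nuclei 17.1% at 5 or more counts and 10.0% at 1 µM and 1:200. The genes 2-fold apart numbered 7554 in nuclei, or 3447 with a count in at least 20 nuclei, and 3938 in whole cells, or 6587 with a count in at least 1 cell and 1309 in at least 20. The split of higher and lower calls among PTZ genes was 48.4% higher with total counts, 54.5% with TMM and 42% with DESeq2. No paired analysis was possible because the replicate numbers only follow the order of the samples and mark no shared animal, and no result comes from a test. The causes of these shifts were not tested, beyond the cells named above. Depth limits the low genes most: *Gad2* and *Slc17a8* in nuclei rest on a few, mostly fractional counts per nucleus.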
